A study of Mus musculus with 2 samples.

Results

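Cyclins of the cell-cycle engine were described in single cells taken on day 16 of reprogramming of mouse embryonic fibroblasts towards induced pluripotent stem cells. The members were the rows of the expression table named Ccnd1, Ccnd2, Ccnd3, Ccne1, Ccne2, Ccna2, Ccnb1, Ccnb2 and Ccnf, and all 9 were among its 17408 genes. The cells carried STEMCCA, a single cassette that expresses the 4 reprogramming factors, and grew in mouse embryonic stem cell medium with LIF and ascorbic acid. Reprogramming was induced with doxycycline, and the cells were taken without sorting. They were collected as 1 group in 2 libraries of 3109 cells (library 1, barcode label C4R) and 3914 cells (library 2, barcode label C5R). The study names 2 independent mouse STEMCCA systems, but the labels tie neither library to a system and do not state whether the cultures were separate. Library and system cannot be told apart, and p-values measure the spread between these libraries, which may be technical. The tests below were limma fits across 7131 genes that passed a filter on low values, except those of Ccne2, which came from fits with no filter across 17408 genes. Each main fit rested on 4 or 8 profiles, 1 per cell group and library. limma drew the spread of each gene partly from all genes, so an SE does not give the spread of that gene alone. All comparisons were between cell states inside the libraries, since the labels gave no treatment to compare.

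Cyclins are the regulatory subunits of cyclin-dependent kinases (CDKs), and their levels rise and fall through periodic transcription and ubiquitin-mediated destruction. D-type cyclins (Ccnd1, Ccnd2, Ccnd3) pair with Cdk4 and Cdk6 and couple growth factor signals to the phosphorylation of the retinoblastoma protein in G1. E-type cyclins (Ccne1, Ccne2) pair with Cdk2 at the start of DNA replication, cyclin A2 (Ccna2) acts in S phase and G2, and B-type cyclins (Ccnb1, Ccnb2) pair with Cdk1 and drive mitosis. Cyclin F (Ccnf) binds no CDK. It is the substrate-binding subunit of an SCF ubiquitin ligase, with a level that peaks in G2. Pluripotent cells of the mouse are known for a short G1 phase and a large share of cells in S phase.

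In GENCODE M21 on GRCm38 (mm10), the D-type genes lie at chr7:144929931-144939925 on the minus strand (Ccnd1), chr6:127125162-127152193 on the minus strand (Ccnd2) and chr17:47505051-47599691 on the plus strand (Ccnd3). The E-type genes lie at chr7:38097984-38107534 on the minus strand (Ccne1) and chr4:11191351-11204779 on the plus strand (Ccne2). Ccna2 lies at chr3:36564865-36572150, Ccnb1 at chr13:100778650-100786570, Ccnb2 at chr9:70407692-70421547 and Ccnf at chr17:24222198-24251484, all on the minus strand.

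RefSeq promoter windows on GRCm38.p6 matched 5 of the 9 members (Ccne1, Ccnb1, Ccnb2, Ccnf and, with 2 start sites, Ccnd3). The 250 bases upstream of the RefSeq start of Ccnb1, Ccnb2 and Ccnf, which rose together with the G2/M score below, are shown with those of Ccne1, which did not follow them. For Ccnb1, Ccnf and Ccne1 the RefSeq start lies inside the GENCODE gene given above. Their windows therefore run partly into that gene. Capitals mark matches on either strand to the CHR element (TTTGAA), the CCAAT box (CCAAT), the E2F motif (TTTNNCGC) and the SP1 motif (GGGCGG). The windows, each on the minus strand and written from 5′ to 3′ in the direction of transcription, are chr13:100786487-100786736 (Ccnb1), chr9:70421555-70421804 (Ccnb2), chr17:24251410-24251659 (Ccnf) and chr7:38107491-38107740 (Ccne1).
Ccnb1: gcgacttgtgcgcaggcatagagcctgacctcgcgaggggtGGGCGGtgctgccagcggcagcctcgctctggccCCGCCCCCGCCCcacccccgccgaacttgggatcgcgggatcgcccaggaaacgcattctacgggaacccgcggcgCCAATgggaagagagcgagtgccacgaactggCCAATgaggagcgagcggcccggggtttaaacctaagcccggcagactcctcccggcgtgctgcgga
Ccnb2: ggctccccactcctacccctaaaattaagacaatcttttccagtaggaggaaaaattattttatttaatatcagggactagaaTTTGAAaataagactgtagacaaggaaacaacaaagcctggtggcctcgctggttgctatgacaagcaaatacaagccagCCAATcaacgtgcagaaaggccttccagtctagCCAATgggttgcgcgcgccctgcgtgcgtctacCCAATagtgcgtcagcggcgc
Ccnf: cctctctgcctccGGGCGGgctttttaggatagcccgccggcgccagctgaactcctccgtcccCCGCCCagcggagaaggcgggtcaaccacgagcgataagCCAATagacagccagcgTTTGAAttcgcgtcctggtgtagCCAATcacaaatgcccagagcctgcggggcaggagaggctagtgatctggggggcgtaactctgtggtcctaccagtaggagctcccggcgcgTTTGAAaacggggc
Ccne1: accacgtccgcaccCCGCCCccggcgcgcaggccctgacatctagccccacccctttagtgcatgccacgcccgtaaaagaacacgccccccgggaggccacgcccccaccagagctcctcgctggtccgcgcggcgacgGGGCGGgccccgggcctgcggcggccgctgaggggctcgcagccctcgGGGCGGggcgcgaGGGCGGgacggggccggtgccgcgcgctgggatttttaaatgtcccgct

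The CCAAT box occurred 2 times in the window of Ccnb1, 3 times in that of Ccnb2 and 2 times in that of Ccnf, and not in that of Ccne1. Ccnd3, whose windows are not shown, had 1 CCAAT box at its downstream start site and 0 at the other. Of all 32851 windows of this length, 33.85% held it. The CHR letters occurred 1 time for Ccnb2 and 2 times for Ccnf, against 15.99% of all windows with at least 1 match. SP1 letters occurred 4 times for Ccne1, 3 times for Ccnb1 and 2 times for Ccnf (32.74% of all windows), and the E2F letters (4.28% of all windows) in none of the 4. No motif overlapped another kind. These matches describe letters in a window and were not tested as binding sites.

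The libraries held 54145377 and 64654306 unique molecular identifiers (UMIs, counts of captured transcripts), with medians of 15625 and 14292 per cell, and shared 12 cell barcodes. Levels are given as UMIs per 10000 UMIs of a cell, averaged over the cells of a group in each library. Clustering without the cyclins, the CDK pathway genes, the cell-cycle genes and sex-linked genes gave 18 clusters. In cluster 4 (146 and 391 cells), 11 of 12 pluripotency markers were at least 2-fold above the other cells, and their summed level was 65.5 and 69.4, against 1.68 and 1.61 in the other cells. These cells are called pluripotent-like. Summed fibroblast markers were at 2.15 and 1.67 in them and at 34.2 and 21.1 elsewhere (0 of 11 raised), smooth muscle markers at 1.61 and 1.32 against 28.9 and 17.9 (0 of 6 raised), and stress genes at 1.74 and 1.83 against 5.40 and 6.97 (0 of 9 raised). Epithelial markers were higher in pluripotent-like cells (1.89 and 2.85 against 0.663 and 0.453, 3 of 9 raised). Endothelial markers (0.627 and 0.775 against 0.195 and 0.184, 2 of 5 raised) and trophoblast markers (0.285 and 0.416 against 0.0278 and 0.0858, 1 of 6 raised) were also higher but low. Neural markers (1.26 and 0.819 against 1.58 and 1.12, 2 of 7 raised) and macrophage markers (0.130 and 0.175 against 0.217 and 0.531, 0 of 7 raised) were not. Pluripotent-like cells were deeper, with a median of 28768 and 26097 UMIs against 15214 and 13651. The part of depth, stress genes and other markers in the results below was not tested.

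The first comparison asked how cyclin levels differed between pluripotent-like cells and all other cells. D-type cyclins split: Ccnd1 and Ccnd2 were lower in pluripotent-like cells and Ccnd3 was higher. Cyclins of the later cycle, Ccne1, Ccna2, Ccnb1, Ccnb2 and Ccnf, were all higher. Of the pluripotent-like cells, 95.9% and 82.9% had both cell-cycle scores (S and G2/M, described below) above 0, against 24.5% and 21.2% of other cells. The part of this share in the differences was not tested here. Cells with both scores are compared further below. Of 8 members tested, 6 were called higher, against 31.5% of 7131 genes, and 2 were called lower, against 46.2% of genes (limma, adjusted p below 0.05). The median log2 difference was 1.35 over the members and -0.16 over all genes tested. Most genes passed the test in one direction or the other. Ccnf passed the filter of a mean of 0.1 over all cells only through the pluripotent-like cells (its mean in the other cells was 0.0956), so its level had to differ. Without it, 5 of 7 members were called higher.

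Ccnd2 had the largest difference of the members. It stood at 0.935 and 0.716 UMIs per 10000 in pluripotent-like cells of libraries 1 and 2. In the other cells it stood at 9.75 and 8.13, which made it 10.4-fold and 11.4-fold lower in pluripotent-like cells (log2 difference -3.29, SE 0.09, adjusted p = 1.4e-08). No pluripotent-like value came near the other cells. Ccnd1 was at 0.506 and 0.488 against 1.78 and 1.64 (log2 difference -1.60, SE 0.09, adjusted p = 4.3e-07). Ccnd3 went the other way, at 2.54 and 1.97 against 0.898 and 0.802 (log2 difference 1.30, SE 0.10, adjusted p = 2.2e-06).

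Ccne1, the E-type cyclin that passed the filter, was at 0.689 and 0.476 in pluripotent-like cells and at 0.167 and 0.143 in other cells (log2 difference 1.40, SE 0.10, adjusted p = 2.3e-06). Its pluripotent-like level differed more between libraries than that of the mitotic cyclins. Ccna2 was at 0.812 and 0.898 against 0.425 and 0.383 (log2 difference 0.92, SE 0.10, adjusted p = 2.4e-05), the smallest rise among the members called higher. The B-type cyclins stood close together in their change. Ccnb1 was at 0.972 and 1.03 against 0.267 and 0.239 (log2 difference 1.64, SE 0.09, adjusted p = 5.1e-07), and Ccnb2 was at 1.61 and 1.73 against 0.432 and 0.392 (log2 difference 1.79, SE 0.10, adjusted p = 3.4e-07). Ccnf was at 0.478 and 0.484 against 0.111 and 0.0807 (log2 difference 1.58, SE 0.10, adjusted p = 7.7e-07), and was also called with no filter (adjusted p = 0.00667).

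Ccne2 did not pass the filter of a mean of 0.1 over all cells (0.0846). It rested on 16 and 70 UMIs in pluripotent-like cells and on 608 and 526 in other cells, with levels of 0.0361 and 0.0636 against 0.103 and 0.0733. In a fit with no filter it was not called (log2 difference -0.33, SE 0.16, adjusted p = 0.215).

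**Figure D1:**
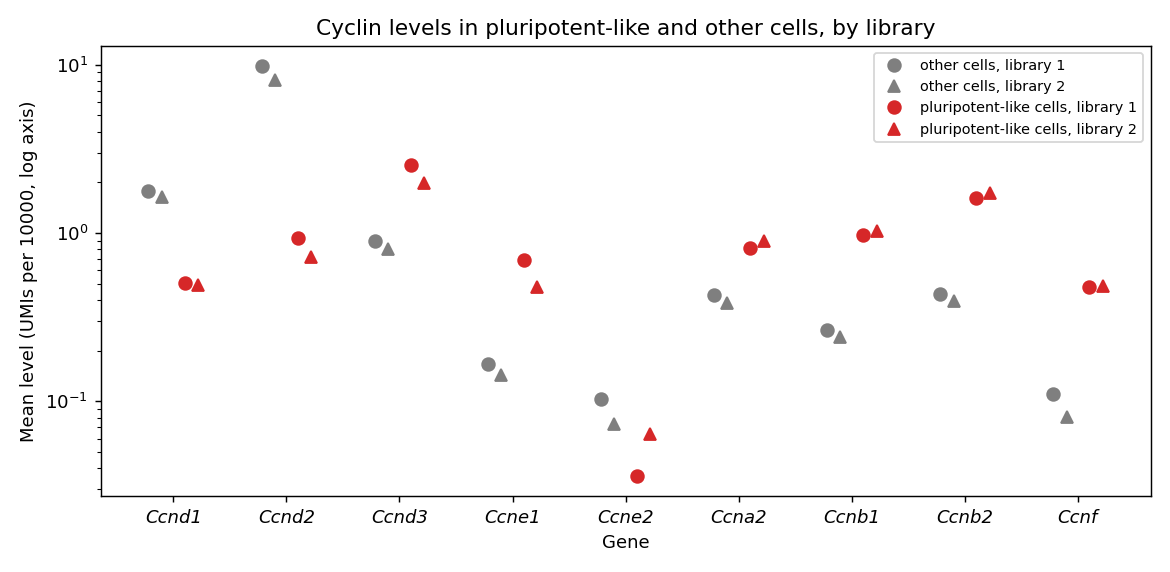
Mean level of each cyclin gene (UMIs per 10000, log axis) in pluripotent-like cells (red) and all other cells (grey), with library 1 as circles and library 2 as triangles. Ccnd1 and Ccnd2 lie lower in pluripotent-like cells, Ccnd3, Ccne1, Ccna2, Ccnb1, Ccnb2 and Ccnf lie higher, and Ccne2 (0.0361 and 0.0636 against 0.103 and 0.0733) did not pass the filter on low values.

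Direction and call of all 8 members held in each of the 13 alternatives with a test, and the directions also held with either library left out, which gives values without a test. Among the 13, a clustering resolution of 0.5 and clustering with only the listed genes kept out gave the same values as the main fit. These add no check of their own. Where a cell was instead called pluripotent-like from at least 3 of its own detected markers, which took in 613 and 936 cells, the differences of Ccnd2 (-0.63), Ccnd1 (-0.37), Ccnd3 (0.39), Ccne1 (0.91) and Ccnf (1.01) were over 1.5 times smaller and still called. The median over all genes moved from -0.16 to 0.47 when UMIs per cell replaced UMIs per 10000, and the split of calls from 2248 higher and 3293 lower to 4108 and 1821, while the 8 members kept their direction.

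The second comparison followed the cyclins over the cell cycle in the cells that were not pluripotent-like. Each cell received an S score and a G2/M score, from gene lists without any cyclin or CDK pathway gene, and each score was divided at 0. Library 1 had 1869 cells with neither score above 0, 327 with only the S score, 727 with both and 40 with only the G2/M score. Library 2 had 2249, 477, 748 and 49. Depth moved with these classes, from a median of 13324 and 11874 UMIs in cells with neither score to 20680 and 19875 in cells with both, and its part was not tested. The scores rest on the same cells as the levels, so the comparison describes which cyclins go with other cell-cycle genes.

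Cyclin A2, the B-type cyclins and cyclin F were near 0 in cells with neither score and rose with the G2/M score. In cells with both scores, 5 of 8 members were higher than in cells with neither (17.7% of all genes were) and 1 was lower (15.1% of all genes). The medians of the log2 difference were 1.47 for the members and -0.00 for all genes. Ccna2 (0.0330), Ccnb1 (0.0357), Ccnb2 (0.0728), Ccnf (0.0148) and Ccne1 (0.0970) had means under the filter of 0.1 in cells with neither score. They passed it only through other cells, so the filter partly set the counts and medians of each class. With both scores, all 5 were also called with no filter (limma, adjusted p up to 0.00941). In cells with only the G2/M score, 4 members were higher (19.2% of genes) and 2 were lower (14.9% of genes), with medians of 0.75 and 0.02. In cells with only the S score, 3 were higher (5.34% of genes) and 0 were lower (4.99% of genes), with medians of 0.19 and -0.03. At an unadjusted p under 0.05, 0 members were lower with the S score only. The calls there were the least stable: Ccna2 was not called with a pseudocount of 1 (adjusted p = 0.186), Ccnb2 not without the filter (0.0581) or with clusters weighted equally (0.0743), and none of the 3 with scores divided at the library median. With that division the calls of Ccnf (0.13, adjusted p = 0.334) and Ccnd2 (-0.06, adjusted p = 0.677) with only the G2/M score were lost too. Ccna2 (0.61), Ccnb1 (0.61) and Ccnb2 (1.41) were still called there, at smaller differences.

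Ccna2 was at 0.0353 and 0.0306 in cells with neither score, 0.135 and 0.115 with only the S score, 1.48 and 1.54 with both and 1.88 and 1.54 with only the G2/M score. Against neither, it was called higher with only the S score (log2 difference 0.76, SE 0.10, adjusted p = 0.0098), with both (3.60, SE 0.10, adjusted p = 1.2e-05) and with only the G2/M score (3.76, SE 0.10, adjusted p = 1.1e-05). Its levels in cells with both scores and with only the G2/M score overlapped between libraries.

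Ccnb1 stayed low in cells with only the S score (0.0506 and 0.0461, against 0.0307 and 0.0407 in cells with neither). It reached 0.887 and 0.887 with both scores (log2 difference 2.86, SE 0.13, adjusted p = 3.5e-05) and 1.80 and 1.35 with only the G2/M score (log2 difference 3.61, SE 0.13, adjusted p = 2.3e-05). Ccnb2 was at 0.0632 and 0.0824 with neither, 0.182 and 0.153 with S only, 1.35 and 1.299 with both and 3.04 and 3.06 with G2/M only. The highest values of both B-type cyclins thus fell in the cells with only the G2/M score, although these were 40 and 49 cells. The log2 difference of Ccnb2 against neither was 0.63, 3.05 and 4.19 along this series (adjusted p = 0.015, 1.5e-05 and 7.1e-06). Ccnf was at 0.0158 and 0.0138, 0.0258 and 0.0280, 0.378 and 0.307, and 0.357 and 0.213 in the same order. It was called with both scores (log2 difference 1.94, SE 0.15, adjusted p = 3.2e-04) and with G2/M only (1.72, SE 0.15, adjusted p = 7.1e-04).

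E-type cyclins had another course. Ccne1 was at 0.106 and 0.0881 with neither score, 0.238 and 0.181 with S only, 0.299 and 0.288 with both, and 0.0740 and 0.0656 with G2/M only. It was called higher with S only (log2 difference 0.65, SE 0.09, adjusted p = 0.010) and with both (1.00, SE 0.09, adjusted p = 5.5e-04), and was not called with G2/M only (-0.21, SE 0.09, adjusted p = 0.10). Ccne2 was at 0.0129 and 0.00811, 0.199 and 0.119, and 0.298 and 0.245 in the first 3 classes. In cells with only the G2/M score it had 0 UMIs in both libraries, where a count of 0 allows a level of up to 0.0422 and 0.0326 (3 counts per library, counting error only). The 15.4-fold and 14.6-fold rise of Ccne2 from neither to S only exceeded that of Ccne1, 2.24-fold and 2.06-fold, in both libraries. With no filter on low values, Ccne2 was called with S only (log2 difference 1.21, adjusted p = 0.041) and with both (1.75, adjusted p = 0.0067).

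D-type cyclins differed less between the classes. Ccnd2 was at 11.1 and 8.64 with neither score, 10.4 and 9.14 with S only, 6.20 and 6.15 with both and 5.84 and 5.30 with G2/M only. It was lower with both (log2 difference -0.66, SE 0.10, adjusted p = 0.0049) and with G2/M only (-0.81, SE 0.10, adjusted p = 0.0027). Ccnd1 was at 1.89 and 1.61 with neither and 1.41 and 1.46 with both, a difference that missed the threshold (-0.27, SE 0.09, adjusted p = 0.074). It was called lower in 5 of 12 alternatives with a test: summed UMIs (-0.43, adjusted p = 0.0177), without the deepest 5% of cells (-0.34, 0.0318), a pseudocount of 1 (-0.17, 0.0321), a spread that follows the mean level (-0.27, 0.0371) and clusters weighted equally. It was -0.14 without library 1 and -0.39 without library 2. Ccnd3 was at 0.889 and 0.808 with neither, 0.915 and 0.856 with both and 0.524 and 0.548 with G2/M only, and was called in the last class (-0.58, SE 0.11, adjusted p = 0.012), though not as UMIs per cell (-0.11, adjusted p = 0.438). As UMIs per cell, where the median of all genes rose by 0.54 in cells with both scores, Ccnd2 was no longer called there (-0.14), Ccnd1 turned to 0.19 without a call and Ccnd3 was called higher (0.69). The split of calls over all genes moved from 1264 higher and 1079 lower to 4821 and 202.

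**Figure D2:**
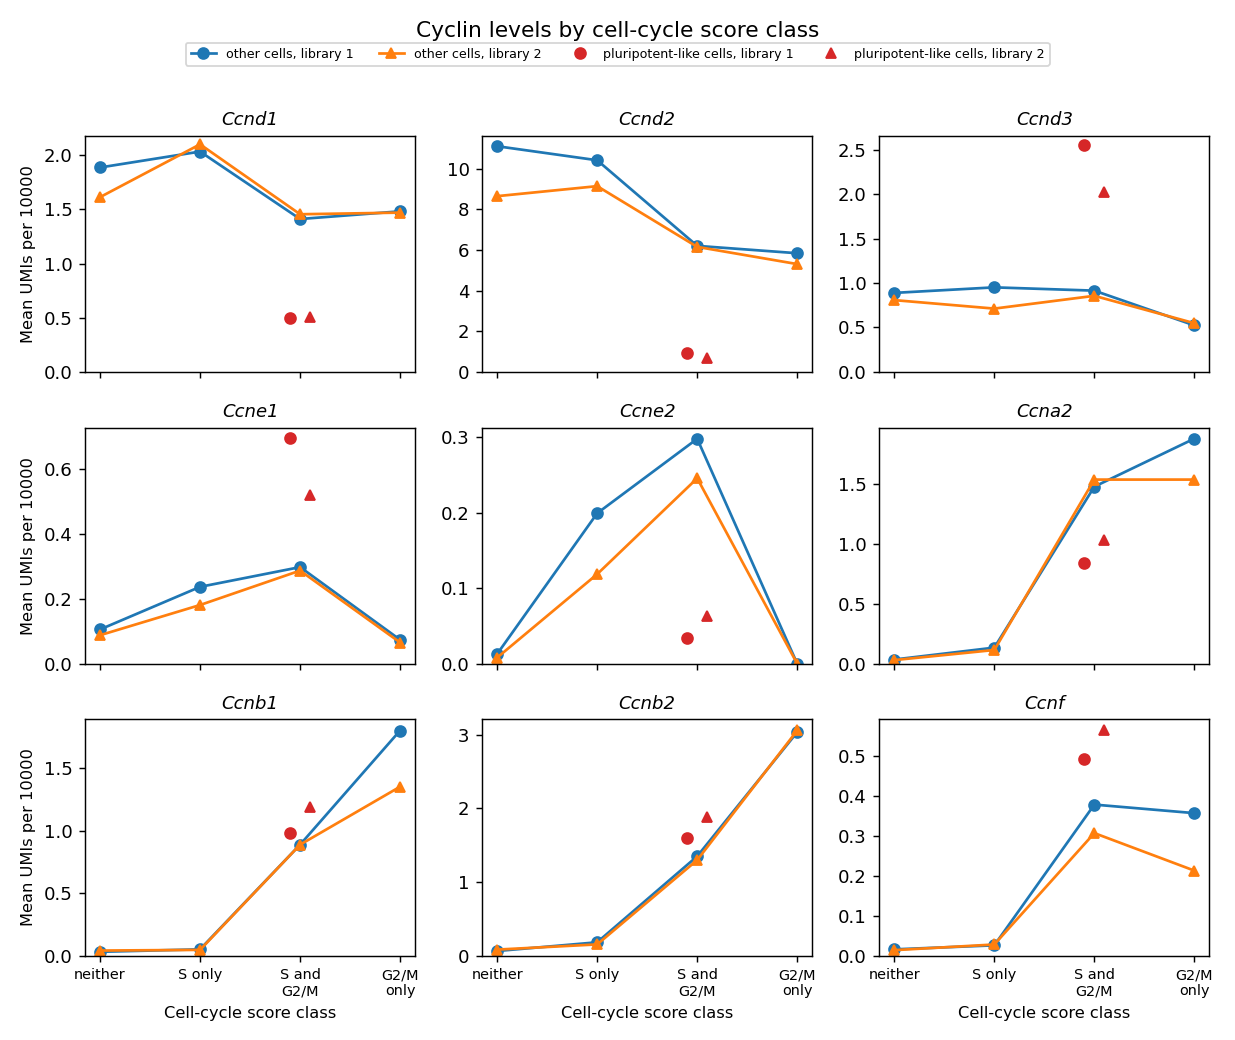
Mean level of each cyclin gene (UMIs per 10000, linear axes from 0) over the 4 cell-cycle score classes in cells that are not pluripotent-like (lines, one per library) and in pluripotent-like cells with both scores above 0 (red symbols). Ccna2, Ccnb1, Ccnb2 and Ccnf rise from cells with neither score to cells with both, Ccne1 and Ccne2 are highest with both and low with G2/M only, and Ccnd2 falls from 11.1 and 8.64 to 5.84 and 5.30.

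The same cells were also ordered by score and divided into 10 bins of equal size in each library, as a description without a test. Along the S score, Ccne2 lay between 0.00432 and 0.0201 in the 7 lowest bins of both libraries and reached 0.569 and 0.463 in the highest bin. Ccne1 was also highest there, at 0.426 and 0.419. Ccnb1 and Ccnb2 were highest at a lower score, in bin 8, with 1.04 and 0.891 for Ccnb1 and 1.48 and 1.28 for Ccnb2. In bin 10 they were at 0.305 and 0.288 and at 0.513 and 0.517. A bin is a rank of the score and not a time in the cycle. The order of E-type and B-type cyclins along the S score was the same in both libraries.

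Along the G2/M score, Ccna2 lay at 0.0541 and 0.0251 in bin 7, 0.582 and 0.334 in bin 8 and 2.06 and 2.14 in bin 10. Ccnb1 was at 0.0442 and 0.0434, 0.215 and 0.140, and 1.68 and 1.59 in these bins. Ccnf followed with 0.0228 and 0.0146, 0.0801 and 0.0392, and 0.613 and 0.453. All 3 rose mainly over the last 3 bins, while Ccnd2 went from 11.2 and 9.07 in bin 7 to 5.80 and 4.99 in bin 10.

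**Figure D3:**
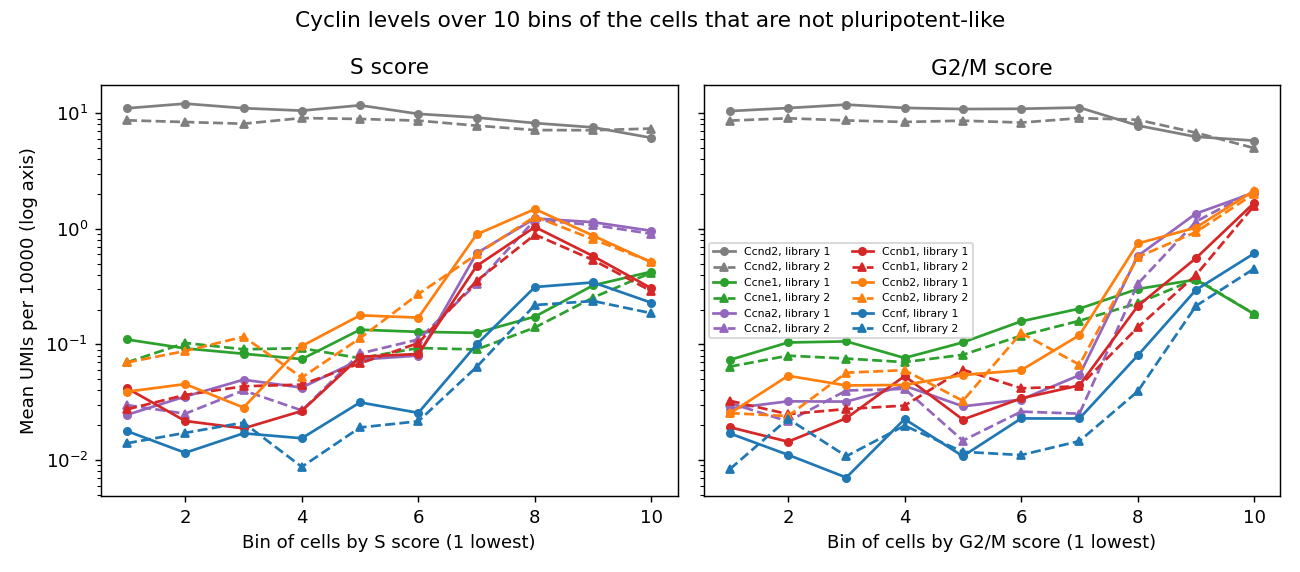
Mean level (UMIs per 10000, log axis) of 6 cyclin genes over 10 bins of the cells that are not pluripotent-like, ordered by S score (left) or G2/M score (right), with library 1 as solid and library 2 as dashed lines. Ccna2, Ccnb1, Ccnb2 and Ccnf rise over the last bins of the G2/M score, and Ccne1 is highest in the last bin of the S score (0.426 and 0.419).

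The direction was also compared within clusters. Among 7 clusters with at least 20 cells in neither, S only and S and G2/M in each library, Ccna2, Ccnb1, Ccnb2, Ccnf, Ccne2 and Ccnd3 were higher in cells with both scores than with neither in 14 of 14 pairs of cluster and library. Ccne1 was higher in 12 of 14. Ccnd2 was lower in 14 of 14 pairs, and Ccnd1 was higher in only 2 of 14. When the 7 clusters were given equal weight, an alternative chosen after seeing the data, Ccnd1 was called lower (-0.57, adjusted p = 6.8e-04) and Ccnd3 higher (0.32, adjusted p = 0.023) in cells with both scores.

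Levels over the 13 clusters with at least 30 cells in both libraries are a description. The pluripotent-like cluster ranked first of 13 for Ccnd3, Ccne1, Ccna2, Ccnb1, Ccnb2 and Ccnf and last for Ccnd1 and Ccnd2. For Ccna2 it did not lie beyond the spread of the next cluster: cluster 9, led by Igfbpl1, was at 0.828 and 0.782, against 0.812 and 0.898. For Ccnb2 the gap was wide, since cluster 9 was second with 0.891 and 0.834.

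Among the other clusters the D-type cyclins marked a different set. Ccnd2 was highest in cluster 11, led by Isg15 (18.1 and 16.6), cluster 1, led by Perp (17.6 and 14.6), and cluster 8, led by Mylk (15.0 and 11.5), and the libraries of each neighbouring pair in this order overlapped. Ccnd1 was highest in the same 3 clusters, at 3.11 and 3.81, 3.41 and 3.44, and 2.92 and 2.57. It was lowest, outside the pluripotent-like cluster, in cluster 12, led by Mmp11, with 0.660 and 0.708. The mean levels of Ccnd1 ranged 5.06-fold and those of Ccnd2 3.84-fold over the 12 clusters that were not pluripotent-like. Clusters 1 and 11 were also among the 5 highest for Ccnb2, whereas cluster 8, with Ccnb2 at 0.167 and 0.190, ranked 9 of 13.

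Mitotic cyclins were lowest in clusters 12, 2 (led by Rgcc) and 3 (led by Pcp4). Ccnb2 was at 0.0976 and 0.0822 in cluster 12, a 9.60-fold lower mean than in cluster 9, and Ccna2 was at 0.126 and 0.0806. Ccnd3 varied least over the 12 clusters (2.24-fold), with its highest level in cluster 6, which had 9 of 11 fibroblast markers raised (1.33 and 1.19), and its lowest in cluster 0, led by Tac2 (0.630 and 0.496). Neighbours in the order of clusters overlapped between libraries in 10 of 12 pairs for Ccnd3, 9 of 12 for Ccnd2, 8 of 12 for Ccne1 and Ccnf, 7 of 12 for Ccna2 and Ccnb1, 6 of 12 for Ccnd1 and 5 of 12 for Ccnb2. For Ccne2 it was 10 of 12.

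**Figure D4:**
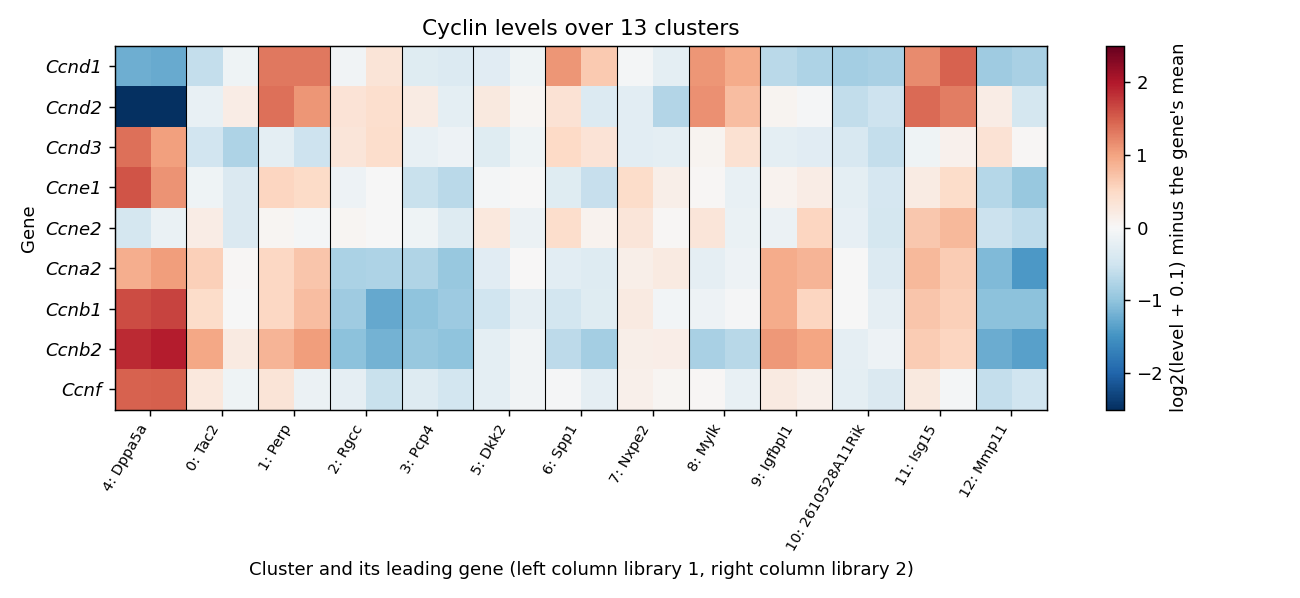
Heat map of log2(level + 0.1) of each cyclin gene minus that gene's mean, over 13 clusters named by their leading gene, with library 1 in the left and library 2 in the right column of each cluster. Cluster 4 (Dppa5a, pluripotent-like) is low in Ccnd1 and Ccnd2 and high in the mitotic cyclins, with both Ccnd2 values beyond the end of the colour scale, and clusters 1, 8 and 11 are high in Ccnd1 and Ccnd2.

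The third comparison set pluripotent-like against other cells of the same score class. It could be made only among cells with both scores above 0 (140 and 324 pluripotent-like cells, 727 and 748 others), since the other score classes held at most 6 pluripotent-like cells in library 1. This class held 95.9% and 82.9% of pluripotent-like cells but 24.5% and 21.2% of other cells. It need not be the same part of the cycle in both. The cells were not fully matched: the median G2/M score was 0.219 and 0.225 in pluripotent-like and 0.334 and 0.329 in other cells. The median S score was 0.287 and 0.291 against 0.245 and 0.236. Depth was 29277 and 28010 UMIs against 20680 and 19875. The parts of the score and of depth in the differences were not tested.

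Within this class Ccna2 was lower in pluripotent-like cells, at 0.844 and 1.04 against 1.48 and 1.54 (log2 difference -0.63, SE 0.09, adjusted p = 4.8e-04), whereas it was higher over all cells. The size and the call depended on how the cells were chosen: the difference was -0.29 (adjusted p = 0.0145) with scores divided at the library median and -0.32 (adjusted p = 0.0225) as UMIs per cell. With S-leaning and G2/M-leaning cells, defined in the split by leaning given next, averaged with equal weight, Ccna2 was not called (-0.15, SE 0.09, adjusted p = 0.172), and over the 6 alternatives with a test for that average it ranged from -0.15 to 0.22, with a call in 2 of them in opposite directions. Ccnd2 (-2.82, SE 0.11, adjusted p = 9.9e-07) and Ccnd1 (-1.35, SE 0.08, adjusted p = 6.8e-06) kept most of their difference, as did Ccnd3 (1.27, SE 0.09, adjusted p = 1.6e-05). Ccne1 was at 0.698 and 0.520 against 0.299 and 0.288 (0.84, SE 0.10, adjusted p = 2.0e-04). The B-type cyclins and cyclin F had smaller differences than over all cells. Ccnb1 was at 0.982 and 1.18 against 0.887 and 0.887 (0.26, SE 0.09, adjusted p = 0.039), Ccnb2 at 1.60 and 1.89 against 1.35 and 1.299 (0.37, SE 0.10, adjusted p = 0.010) and Ccnf at 0.492 and 0.564 against 0.378 and 0.307 (0.51, SE 0.11, adjusted p = 0.0042). In all, 5 of 8 members were called higher (26.9% of genes) and 3 lower (47.1% of genes), with medians of 0.31 and -0.17. Ccnf, which passed the filter only through the pluripotent-like cells, is among the 5. The call of Ccnb1 was lost with a pseudocount of 0.01 (adjusted p = 0.10), with no library term (0.066) and with no filter on low values (0.16), and those of Ccnb2 (0.111) and Ccnf (0.115) with no filter. The differences were larger with scores divided at the library median, at 0.58 for Ccnb1, 0.68 for Ccnb2 and 0.79 for Ccnf. With S-leaning and G2/M-leaning cells averaged with equal weight they were 0.88 (SE 0.09, adjusted p = 2.7e-05), 0.95 (SE 0.10, adjusted p = 4.7e-05) and 0.77 (SE 0.10, adjusted p = 1.8e-04) in the same order. In that average, added after seeing the data, 5 of 8 members were called higher (30.2% of genes) and 2 lower (48.8% of genes). Ccnf is again among those called higher, with the same limit. Without library 2 the differences of Ccnb1 (0.13), Ccnb2 (0.23) and Ccnf (0.31) were over 1.5 times smaller.

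The 2 E-type cyclins moved apart in these cells. Ccne2 was at 0.0345 and 0.0627 (15 and 62 UMIs) in pluripotent-like cells and at 0.298 and 0.245 (443 and 395 UMIs) in other cells. With no filter on low values, a fit added after seeing the data, Ccne2 was lower by 1.32 on the log2 scale (SE 0.16, adjusted p = 0.038), and in that fit Ccne1 was higher by 0.84 (adjusted p = 0.042). Ccne2 was 8.62-fold and 3.91-fold lower in the 2 libraries.

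A finer split, also added after seeing the data, divided all cells with a score above 0 into S-leaning and G2/M-leaning cells, by the higher of both scores after each was centred on its median in that class and library. In the cells that were not pluripotent-like, 4 of 8 members were higher in G2/M-leaning cells (3.70% of genes) and 2 were lower (1.36% of genes), with medians of 0.59 and 0.02. Ccnb1 rose from 0.159 and 0.130 to 1.34 and 1.25 (log2 difference 2.52, SE 0.12, adjusted p = 3.0e-05), Ccnb2 from 0.362 and 0.280 to 1.98 and 1.89 (2.28, SE 0.14, adjusted p = 7.9e-05), and Ccna2 from 0.525 and 0.407 to 1.84 and 1.87 (1.79, SE 0.13, adjusted p = 1.6e-04). Ccnf rose by 1.45 (SE 0.15, adjusted p = 8.4e-04). Ccnd2 (-0.64, SE 0.11, adjusted p = 0.016) and Ccnd1 (-0.45, SE 0.10, adjusted p = 0.039) were lower, but both calls were lost with a pseudocount of 0.01, without the library term and as UMIs per cell (adjusted p up to 0.14).

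In pluripotent-like cells, 2 of 8 members were higher in G2/M-leaning cells (0.912% of genes) and 0 lower (0.14% of genes; 1 at an unadjusted p under 0.05, Ccne1), with medians of 0.20 and -0.01. Ccnf rose from 0.290 and 0.216 to 0.661 and 0.824 (1.26, SE 0.15, adjusted p = 0.0067), and Ccnb1 from 0.731 and 0.659 to 1.21 and 1.51 (0.87, SE 0.12, adjusted p = 0.017). Both calls were lost with a pseudocount of 0.01 (adjusted p = 0.0607 for Ccnf and 0.097 for Ccnb1). Ccna2 (0.64, SE 0.13, adjusted p = 0.082) missed the threshold. Ccnb2 was already at 1.60 and 1.45 in S-leaning pluripotent-like cells and stood at 1.62 and 2.11 in G2/M-leaning ones (0.26, SE 0.14, adjusted p = 0.43), with the increase in library 2 only.

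The difference between the classes was tested itself. The G2/M-leaning minus S-leaning difference was smaller in pluripotent-like cells for Ccnb2 (-2.02, SE 0.20, adjusted p = 0.013) and Ccnb1 (-1.65, SE 0.17, adjusted p = 0.013), 2 of 8 members against 0.393% of genes, and 0 members were called in the other direction (0.0701% of genes), where Ccnd1 and Ccnd2 had an unadjusted p under 0.05. Medians were -0.02 over the members and -0.04 over all genes. Ccna2 lay just above the threshold (-1.16, SE 0.19, adjusted p = 0.0503), and Ccnf did not approach it (-0.19, SE 0.21, adjusted p = 0.71). The scores themselves were less separated in pluripotent-like cells: the mean G2/M score was 0.316 and 0.347 in G2/M-leaning and 0.109 and 0.062 in S-leaning cells, against 0.459 and 0.441 and 0.010 and -0.034 in the others. The part of this in the smaller difference was not tested. Neither B-type call held with a pseudocount of 0.01 or as UMIs per cell (adjusted p = 0.135 and 0.0541 for each).

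**Figure D5:**
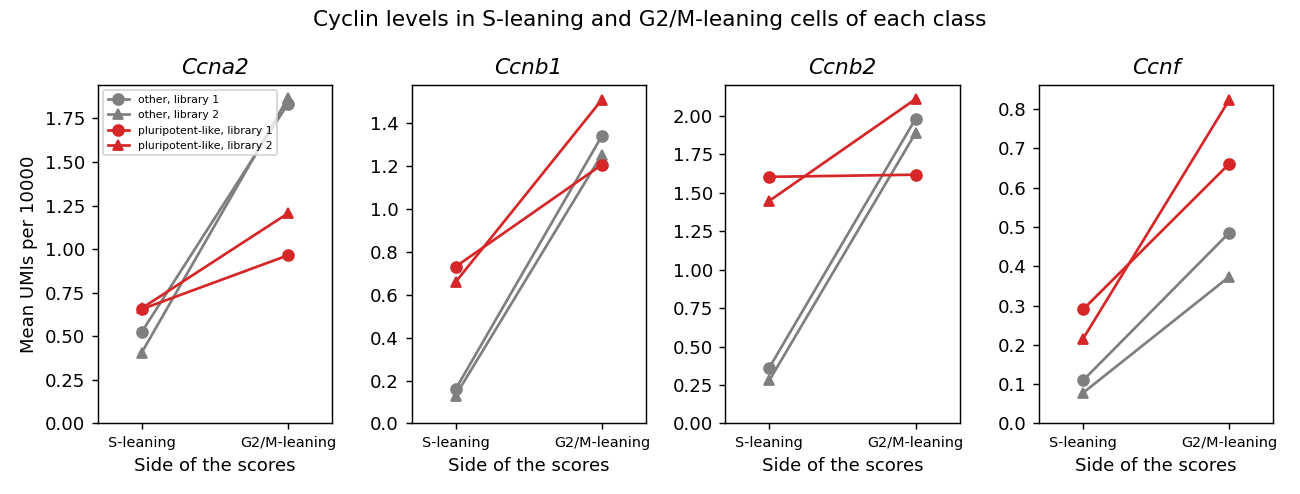
Mean level (UMIs per 10000, linear axes from 0) of Ccna2, Ccnb1, Ccnb2 and Ccnf in S-leaning and G2/M-leaning cells, for other cells (grey) and pluripotent-like cells (red), with library 1 as circles and library 2 as triangles. Ccnb2 goes from 0.362 and 0.280 to 1.98 and 1.89 in other cells and from 1.60 and 1.45 to 1.62 and 2.11 in pluripotent-like cells.

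Partners and regulators of the cyclins were read from lists of 37 CDK pathway genes, of which 24 passed the filter. In pluripotent-like against other cells, 13 were higher (31.5% of all genes were), 10 were lower (46.2% of all genes) and 1 was not called (median log2 difference 0.45). Lower genes included 7 of 7 CDK inhibitors, with the largest decreases in Cdkn1c (-2.09, SE 0.09, adjusted p = 1.2e-07), Cdkn2a (-1.99, SE 0.11, adjusted p = 3.6e-07), Cdkn2b (-1.90, SE 0.09, adjusted p = 2.0e-07) and Cdkn2c (-1.63, SE 0.09, adjusted p = 3.8e-07). Cdkn2a, which encodes inhibitors of Cdk4 and Cdk6 and of Mdm2, was at 0.222 and 0.201 against 1.34 and 0.952. The 4 largest increases were in Mybl2, a Myb factor that activates G2/M genes (2.87 and 3.12 against 0.156 and 0.120, log2 difference 3.70, SE 0.10, adjusted p = 1.6e-08), Cdc20 (1.57) and Fzr1 (1.25), the activators of the anaphase-promoting complex that marks cyclins for destruction, and E2f4 (1.23). All 5 genes of the cyclin turnover list were higher, and all 3 E2F genes tested. Of these, E2f5 was under the filter of 0.1 in other cells (0.0988 and 0.0903). It passed only through the pluripotent-like cells (0.180 and 0.256), so its level had to differ.

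Among cells with both scores, pluripotent-like cells had higher levels of 6 of the 24 genes (26.9% of all genes) and lower levels of 14 (47.1% of all genes; median -0.31), again with 7 of 7 inhibitors lower. Mybl2 (2.66, SE 0.10, adjusted p = 9.8e-07) and E2f4 (0.91) still led the increases, followed by E2f5 (0.60) and Fzr1 (0.56). E2f5 was tested here only because the pluripotent-like cells brought it past the filter. Cdkn2c (-2.75, SE 0.08, adjusted p = 4.8e-07) led the decreases, before Cdc25b (-1.61), a phosphatase that activates Cdk1, Cdkn2d (-1.48) and Cdkn2a (-1.24).

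Over the cycle in cells that were not pluripotent-like, 13 of the 24 were higher with both scores than with neither (17.7% of all genes), 4 were lower (15.1% of all genes) and 7 were not called (median 0.78). Increases were largest in Cdc20 (0.0586 and 0.0503 to 1.52 and 1.46, log2 difference 3.36, SE 0.10, adjusted p = 1.2e-05), Cdk1 (2.67), Fbxo5 (2.61), an inhibitor of the anaphase-promoting complex, and Mybl2 (1.87). Cdc20, Fbxo5 (0.0220 and 0.0143) and Mybl2 (0.0356 and 0.0335) were under the filter of 0.1 with neither score and passed it only through other cells. The same held for Pkmyt1 (0.0246 and 0.0132) and Cdc25b (0.0692 and 0.0748), which were also called higher with both scores. The filter thus partly set the count of 13 and the median. The 4 lower genes were all CDK inhibitors: Cdkn1c (-1.40), Cdkn2b (-1.38), Cdkn2a (-1.02) and Cdkn1a (-0.37). The other 3 inhibitors did not share this direction, with 2 of them called higher and 1 not called.

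Of 16 other genes of the cyclin family that were listed, 15 were in the table and 11 were tested. In pluripotent-like cells 2 were higher (31.5% of all genes), Ccnh (0.67, SE 0.09, adjusted p = 1.1e-04) and Ccnk (0.31, SE 0.09, adjusted p = 0.0097), and 5 were lower (46.2% of all genes), led by Ccni (-1.03), Ccng1 (-0.81), Ccny (-0.62) and Ccng2 (-0.62). Their median was -0.13. With both scores against neither, 1 of 11 was called higher (17.7% of all genes), Ccnk (0.35, SE 0.08, adjusted p = 0.016). None was called lower (15.1% of all genes).

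Genes with the most similar pattern over 26 profiles (13 clusters in 2 libraries), among those on none of the lists, were ranked by Pearson's r of log2(level + 0.1) as a description. The profiles share libraries and, within a library, depth. Ccna2 was most like Smc2 (r = 0.975), Kif20a (0.968) and Prc1 (0.962). Ccnb1 was most like Sae1 (0.973), Plk1 (0.964) and Snrpc (0.962), and Ccnb2 most like Dbf4 (0.980), Kif22 (0.973) and Hdgf (0.970). For Ccnf the genes were Wdr5 (0.949), Eed (0.947) and Zmynd19 (0.936). Ccnd1 was most like Rock2 (0.928), Arpc5 (0.916) and Tnfrsf12a (0.910), and Ccnd2 most like Fgfr1op2 (0.926), Cfl2 (0.921) and S100a10 (0.915). For Ccnd3 these were Ncoa3 (0.919), Atf4 (0.917) and Pitpnc1 (0.887), for Ccne1 Polr2f (0.930), Ndufs6 (0.926) and Cox5a (0.922), and for Ccne2, at lower r, Ap1s1 (0.822), Tcf19 (0.820) and Nadk (0.816).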

How the data were processed

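Single-cell 3′ libraries (Chromium V2 chemistry) were processed by the authors with Cell Ranger 2.1.1 against mm10 and Seurat. The deposited table held 7023 cells by 17408 genes as the natural log of 1 plus UMIs per 10000. Every value was exponentiated, and 100% gave whole UMIs within 0.01. Cells had 4753 to 60990 UMIs, and no further cell filter or doublet caller was run here. Cells were scored (scanpy 1.11.5), clustered (leidenalg 0.10.2, resolution 1, 30 components, 15 neighbours, 2000 variable genes) and averaged by library. Genes correlated with a score by 0.3 or more in both libraries were kept out of the clustering. limma 3.58.1 (R 4.3.3) fitted log2(mean + 0.1) with library as a term over 7131 genes with a mean of at least 0.1, with Benjamini-Hochberg adjustment. Fold changes are on that scale, which understates changes of low genes. Because the authors deposited natural log values, their back-transformed cell means were tested without a count model, and sums of the recovered UMIs were an alternative. The limma fits were also run on simulated counts with a fixed spread and no library effect. Those runs do not show how the fits behave on these libraries.

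The members and gene lists were chosen with earlier results of these data known. Named in the text were all 9 members, the 4 genes with the largest change in each direction among those past the threshold on the pathway and cyclin-family lists, and the 3 most similar genes per member. Floors at 3 counts cover counting error only. A planned interaction over score classes could not be fitted, as too few pluripotent-like cells lay outside 1 class, and the split into S-leaning and G2/M-leaning cells replaced it. Alternatives covered pseudocount, filter, scaling, library term, clustering, score cut, thinning to 4000 UMIs, depth and left-out libraries. Protein sequences were not used here.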

Additional observations from a re-analysis of the deposited data

Results flagged for a closer look

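Ccnb2 and Ccnb1, the B-type cyclins, were singled out because their change between S-leaning and G2/M-leaning cells differed between pluripotent-like and other cells in a test of that difference, by -2.02 for Ccnb2 and by -1.65 for Ccnb1 on the log2 scale (limma, adjusted p = 0.013 for each). For both genes the difference had the same sign in both libraries. Neither call held with a pseudocount of 0.01 or as UMIs per cell (limma, adjusted p up to 0.135). The split was added after seeing the data, and the scores were less separated in pluripotent-like cells.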

How the results depend on the processing

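No paired analysis was possible because the labels give 1 group, so that there are no groups of samples to pair. Cell states were compared within libraries with library as a term, and the fit without that term is among the alternatives. Each of the 8 members tested kept its direction and call between pluripotent-like and other cells in the 13 alternatives with a test. With scores divided at the library median, 0 members were called between S only and neither (3 as reported), Ccna2 turned to -0.05 there, and Ccne1 turned to 0.39 between G2/M only and neither. In the split by leaning, a pseudocount of 0.01 left 0 members called within pluripotent-like cells and 0 for the difference between classes, UMIs per cell left 0 for that difference, and a pseudocount of 1 gave 5. Over all genes, calls for that difference went from 33 to 1 (pseudocount of 0.01 and UMIs per cell), 174 (pseudocount of 1), 90 (trend) and 52 (centred on the median gene). Calls between S only and neither went from 737 to 352 without the library term, 434 without the filter, 1165 from thinned cells and 1601 as UMIs per cell. Those with both scores went from 2343 to 5023 as UMIs per cell and 3787 at the library median, and those with G2/M only from 2426 to 3712 and 968. The phase calls went from 361 to 189 (pseudocount of 0.01) and 993 (UMIs per cell) in other cells, and from 75 to 33, 220 and 153 (pseudocount of 1) in pluripotent-like cells. The causes were not tested. Leaving out a library gave values without a test, and no called member changed sign. Few cells with only the G2/M score (40 and 49) and few UMIs of Ccne2 (624 and 596) limit the precision of their values.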
